A study of Mus musculus with 6 samples.

Results

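Of the 29087 YTHDC1 binding peaks shared by the libraries of C2C12 myoblasts, 480 (1.65%) lay in an intron within 200 nt of an exon. On the 5′ side of the intron lay 250 of them and on the 3′ side 229. These 480 peaks are called members below. A member is a replicate 1 peak that overlapped a replicate 2 peak on the same strand by at least 1 nt. Its centre lay inside a protein-coding gene on the strand of that gene's RNA and in no annotated exon of any gene, and the nearest exon edge of the gene was 200 nt or less away. The 5′ side begins where an exon ends, and the 3′ side runs up to the next exon. The edge was a splice site of an annotated transcript for 215 members of the 5′ side and 194 of the 3′ side. For the others it was the end of a transcript. A single member in an intron of equal distance to both exons belongs to neither side. For comparison, 5298 shared peaks lay deeper in introns of such genes (over 200 nt from an exon) and 13439 lay in exons.

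YTHDC1 is the nuclear reader of N6-methyladenosine (m6A), a methyl mark that the METTL3 and METTL14 complex with its adaptor WTAP places on adenosines of RNA, mostly within GGAC and related sequences. In the nucleus YTHDC1 is known to bind splicing factors of the SR family and to take part in splice site choice and in mRNA export. Introns begin with the 5′ splice site, which pairs with U1 snRNA, and end with a branch point, a pyrimidine tract and the 3′ splice site AG, which U2 snRNP and U2AF recognise. Many snoRNAs, the guides of rRNA modification, are cut out of introns after splicing.

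The study mapped YTHDC1 binding by LACE-seq, in which protein and RNA are crosslinked by UV light, the complex is pulled down with an antibody and the cDNA ends at the crosslink. C2C12 is an established mouse myoblast line, here wild type and grown in growth medium, and its 2 libraries are labelled as biological replicates, whereas the study's text calls them technical, so the spread between them may be technical only. The comparison group is ASC-48h, activated muscle stem cells labelled wild type, with 2 biological replicates (B1, B2) of 2 libraries each. No library without YTHDC1 or without antibody was analysed here. C2C12 replicate 1 listed 60540 peaks and replicate 2 listed 71992, none with under 6 reads per 20-nt bin, and the depth of the libraries is unknown. Of the myoblast markers, Itga7 held 11 shared peaks, Des 10, Cdh15 and Ncam1 3 each and Myf5 2, whereas Myod1 held 0. Of the markers of other cells, Pecam1 held 1 and Ptprc and Epcam held 0.

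The members with the most reads on the 5′ side are shown as the RNA runs, from the last 6 exonic bases through the 5′ splice site to 10 nt beyond the peak, with the peak in capitals (NCBIM37, which is mm9). They show how far into the intron the bound bin lies.
Eef2, chr10:80641632-80641710, plus strand: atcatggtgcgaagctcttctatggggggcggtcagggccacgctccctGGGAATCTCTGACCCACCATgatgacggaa
Baiap2, chr11:119864394-119864470, plus strand: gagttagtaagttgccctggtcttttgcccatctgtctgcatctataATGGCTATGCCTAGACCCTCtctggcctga
Lgals1, chr15:78758474-78758670, plus strand: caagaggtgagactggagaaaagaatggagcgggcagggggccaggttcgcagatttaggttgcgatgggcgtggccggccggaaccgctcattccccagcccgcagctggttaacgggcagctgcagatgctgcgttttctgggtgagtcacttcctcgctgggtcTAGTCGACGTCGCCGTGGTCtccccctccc
Chpf2, chr5:24095474-24095590, plus strand: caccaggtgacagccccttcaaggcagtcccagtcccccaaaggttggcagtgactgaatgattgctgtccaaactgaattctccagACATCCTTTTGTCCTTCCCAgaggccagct

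On the 3′ side, the highest members with a 20-nt sequence found once in the genome are shown from 10 nt before the peak to 6 bases into the next exon, again with the peak in capitals. The Naa50 peak is followed by a long run of C, which the reads of the opposite strand hold as a run of G.
Slc44a2, chr9:21158011-21158131, plus strand: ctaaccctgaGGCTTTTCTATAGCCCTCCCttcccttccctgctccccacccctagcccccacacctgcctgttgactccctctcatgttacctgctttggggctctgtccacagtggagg
Col6a3, chr1:92710386-92710510, minus strand: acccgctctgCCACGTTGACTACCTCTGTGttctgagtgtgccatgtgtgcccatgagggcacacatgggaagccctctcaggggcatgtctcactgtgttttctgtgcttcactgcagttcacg
2010111I01Rik, chr13:63402891-63403092, plus strand: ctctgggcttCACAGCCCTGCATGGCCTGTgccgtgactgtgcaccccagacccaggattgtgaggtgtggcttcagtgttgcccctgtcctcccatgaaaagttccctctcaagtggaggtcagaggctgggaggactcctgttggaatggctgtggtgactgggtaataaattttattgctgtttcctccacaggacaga
Naa50, chr16:44144751-44144899, plus strand: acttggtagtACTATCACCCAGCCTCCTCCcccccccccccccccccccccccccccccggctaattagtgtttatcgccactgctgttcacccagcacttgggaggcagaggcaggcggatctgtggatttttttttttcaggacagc

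Among members with a 20-nt sequence found once in the genome, the highest that reach across an exon edge are shown as the 20-nt bin with 10 nt on each side, with exonic bases in capitals. On the 5′ side, 3 of the 4 show the exon joined to a gt, Ltbp2 tied with Lphn2 in mean reads among such members, and the edge of Safb2 is a transcript end and not a splice site of an annotated transcript.
Tmco5b, chr2:113128431-113128470, plus strand: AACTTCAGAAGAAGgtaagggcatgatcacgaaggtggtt
Safb2, chr17:56715731-56715770, minus strand: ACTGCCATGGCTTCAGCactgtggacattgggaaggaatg
Plec, chr15:76020511-76020550, minus strand: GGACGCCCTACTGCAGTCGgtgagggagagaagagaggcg
Ltbp2, chr12:86128831-86128870, minus strand: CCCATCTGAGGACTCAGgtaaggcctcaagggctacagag

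On the 3′ side, all 4 show an intron ending in ag before the exon. In Eef2, which encodes the elongation factor that moves the ribosome along the mRNA, the bin held 20 reads in replicate 1 and 8 in replicate 2.
Eef2, chr10:80644611-80644650, plus strand: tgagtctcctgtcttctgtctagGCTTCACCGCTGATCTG
Cd164, chr10:41246611-41246650, plus strand: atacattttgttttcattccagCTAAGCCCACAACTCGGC
Cfl1, chr19:5492471-5492510, plus strand: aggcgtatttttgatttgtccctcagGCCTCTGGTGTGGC
Spna2, chr2:29886171-29886210, plus strand: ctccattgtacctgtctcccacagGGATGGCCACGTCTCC

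Each peak could be placed only as finely as its bin, and the place differed between the strands of the chromosomes. Shared peaks were taken whose centre lay inside an annotated snoRNA gene or less than 20 nt from it. On the plus strand 187 such centres lay a median of 21 nt from the 5′ end of the snoRNA gene. Of them, 47.1% (interval 39.7 to 54.5%) lay less than 20 nt from that end or before it. On the minus strand the median of 106 such peaks was 50 nt, and 0 of them (upper bound 3.42%) lay that close. The strands also differed in number, since 302 members lay in genes of the plus strand and 178 in genes of the minus strand, or 5.47 (4.87 to 6.12) and 3.44 (2.95 to 3.99) per 10000 windows. A window here is a 20-nt bin of intron in a gene with a shared peak, and intervals are exact at the 95% level and cover counting error only. The same held for deep introns, with 3.71 against 2.90 per 10000 windows, and for exons, with 125 against 95.6. The part of these shifts in the distances below was not tested, and the main values are therefore given for each strand.

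With both strands pooled, members were most frequent in the last 20 nt before an exon. The 74 members there made 12.2 per 10000 windows (9.60 to 15.3), whereas the 22 members in the 20 nt after an exon made 3.63 (2.28 to 5.50), a ratio of 3.37 (2.07 to 5.69). All peaks of each library, shared or not, gave 177 against 65 in replicate 1 and 165 against 74 in replicate 2. The distance was chosen after the values were seen, so the ratio is a description. On plus-strand genes the 3′ side held 56 members (17.9 per 10000) in these 20 nt and the 5′ side 12 (3.84). On minus-strand genes the numbers were 18 (6.14) and 10 (3.41), a ratio of 1.80, and these intervals overlapped. There the highest value was 6.37, on the 5′ side from 101 to 120 nt (16 members, 3.64 to 10.3), and its interval overlapped that of the last 20 nt (3.64 to 9.71). Of the 74, 53 reached across the edge and so held exonic bases, and 67 lay at an edge that is a splice site of an annotated transcript. In 26 of the 74 (35.1%) the exon at the edge also held a shared peak within 200 nt, against 27.5% of all 3′ side members and 4.97% of 3′ side windows. These windows come from all genes with a shared peak. Genes with a member had a median of 6 shared peaks and genes without one had 2, and the part of this in the shares was not tested. Without the members that reach across, 21 remained on the 3′ side and 5 on the 5′ side.

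**Figure D1:**
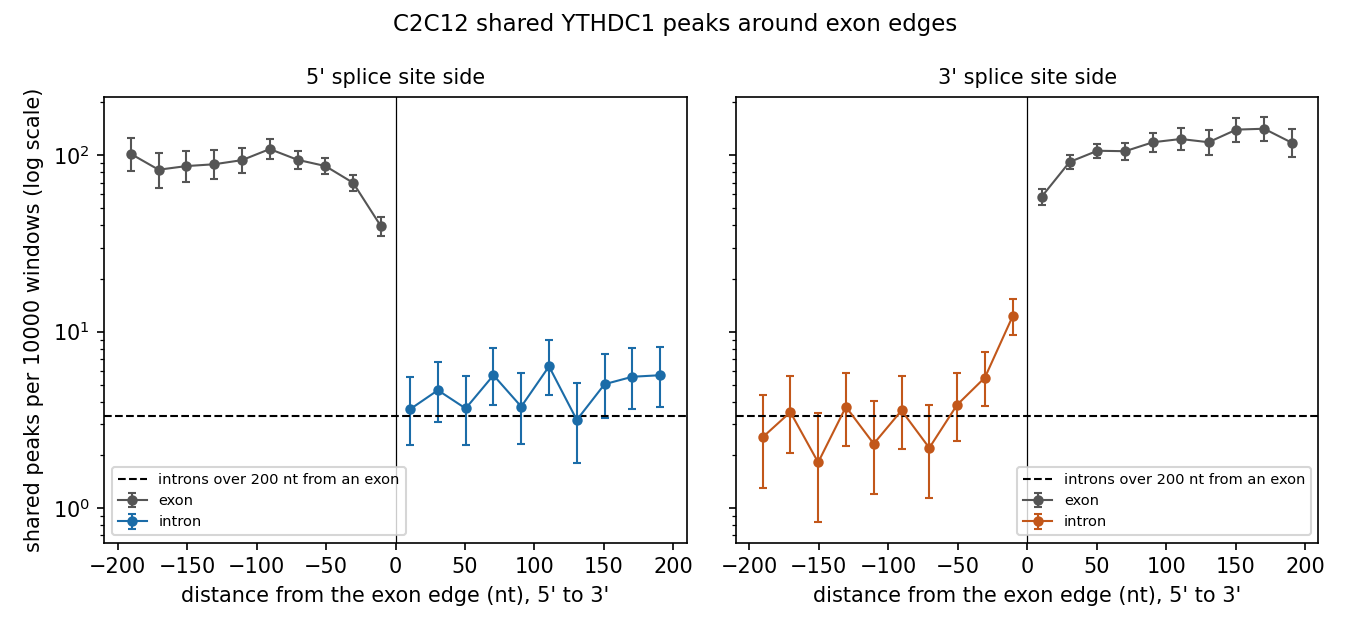
Shared C2C12 peaks per 10000 windows of 20 nt (log axis) by distance from the exon edge on the 5′ and the 3′ side, with exact 95% intervals as bars and the level of introns over 200 nt from an exon as a dashed line. In introns the point nearest to the 3′ exon edge stands at 12.2 and all other intronic points lie between 1.81 and 6.35, while exonic points lie between 39.6 and 141.

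From 21 to 60 nt the 3′ side was still slightly higher, with 5.49 against 4.66 per 10000 windows at 21 to 40 nt and 3.85 against 3.67 at 41 to 60 nt, and the intervals overlapped. In the bins beyond 60 nt the 5′ side was higher, except at 121 to 140 nt (3.16 against 3.75). From 21 to 200 nt in all, the 5′ side held 228 members, 4.81 per 10000 windows (4.21 to 5.48), and the 3′ side 155, 3.27 (2.78 to 3.83). From 101 to 200 nt the values were 128 members (5.15) and 69 members (2.78), and the single libraries listed 323 against 204 and 417 against 260 peaks. Over the pooled distances this order held on both strands, with 5.56 against 3.97 from 21 to 200 nt on the plus strand and 4.01 against 2.53 on the minus strand. The median distance was thus 102.5 nt on the 5′ side and 43 nt on the 3′ side. Over the whole 200 nt the sides did not differ by the test, with 4.68 and 4.29 members per 10000 windows (Fisher's exact test of windows, two-sided, p = 0.361, adjusted p = 0.570 over 7 tests). With a limit of 50 nt in place of 200, 68.3% of the members lay on the 3′ side (exact test, adjusted p = 2.83e-06). That test pooled the strands and kept the members that reach across the edge. On minus-strand genes the 3′ side held 18 members against 10 at 1 to 20 nt, 10 against 8 at 21 to 40 nt and 5 against 7 at 41 to 60 nt. These intervals overlapped. Without the members that reach across the edge, 42.9% lay on the 3′ side (exact test, adjusted p = 0.0113). This filter took out 54 members of the 3′ side and 17 of the 5′ side but no windows. Its test therefore cannot compare the sides. At the limit itself, the bins from 181 to 200 nt held 5.66 per 10000 on the 5′ side and 2.52 on the 3′ side, and introns from 201 to 500 nt held 4.33.

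**Figure D2:**
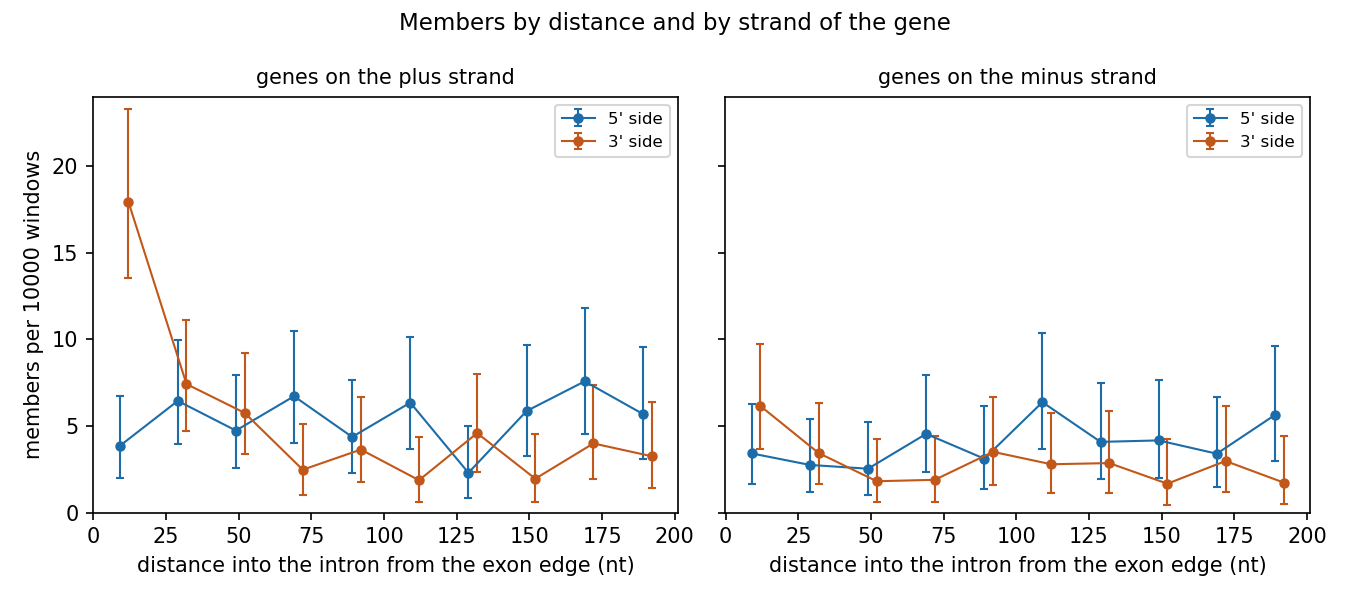
Members per 10000 windows by distance into the intron (nt), for genes of the plus strand and of the minus strand, with exact 95% intervals as bars. On the plus strand the 3′ side point nearest to the exon is at 17.9 and on the minus strand at 6.14, against 3.84 and 3.41 on the 5′ side.

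Set against deep introns of the same genes, the intron near splice sites held more peaks. The density was 4.49 per 10000 windows (4.10 to 4.91) against 3.30 (3.22 to 3.39), a ratio of 1.36 (Fisher's exact test, two-sided, adjusted p = 4.48e-09, across windows, which are not replicates). All peaks of replicate 1 gave a ratio of 1.35 and all peaks of replicate 2 one of 1.29. Without the members that reach across the exon edge, and with the windows left as they were, it was 1.16 (3.83 per 10000). The ratio was 1.48 on plus-strand genes and 1.19 on minus-strand genes, where the call was lost (exact test, adjusted p = 0.103). Deep introns were not uniform, with 4.33 (3.97 to 4.71) from 201 to 500 nt, 3.99 from 501 to 1000 nt, 3.91 from 1001 to 5000 nt and 2.72 (2.61 to 2.83) beyond 5000 nt. The interval of the members thus overlapped that of introns from 201 to 500 nt. Among the members, 83.5% had a 20-nt sequence found once in the genome, against 65.4% of deep peaks, and 10.0% against 22.3% had one found over 10 times. Their introns ran from 65 to 148146 nt with a median of 1727.5 nt. The nearest edge was a splice site of an annotated transcript for 410 members (85.4%), and for the other 70 it was the end of a transcript, against 93.5% (5′ side) and 91.9% (3′ side) of windows.

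The reads of the members were low and close to the smallest number that the lists hold. Reads per bin ran from 6 to 29 in replicate 1 and from 6 to 28 in replicate 2, and the median was 8 in both libraries on either side. Only 70 members (14.6%) had at least 10 reads in both libraries, 42 on the 5′ side and 28 on the 3′ side. The libraries gave equal numbers for 113 members, higher numbers in replicate 1 for 164 and in replicate 2 for 203. Across the 480 members, which share their 2 libraries, Pearson's r of log2 reads was 0.56 as a description. Of the peaks this near to splice sites, 38.5% in replicate 1 (480 of 1248) and 32.6% in replicate 2 (481 of 1474) were shared, close to deep introns (38.4% and 30.0%) and below exons (49.5% and 49.0%).

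**Figure D3:**
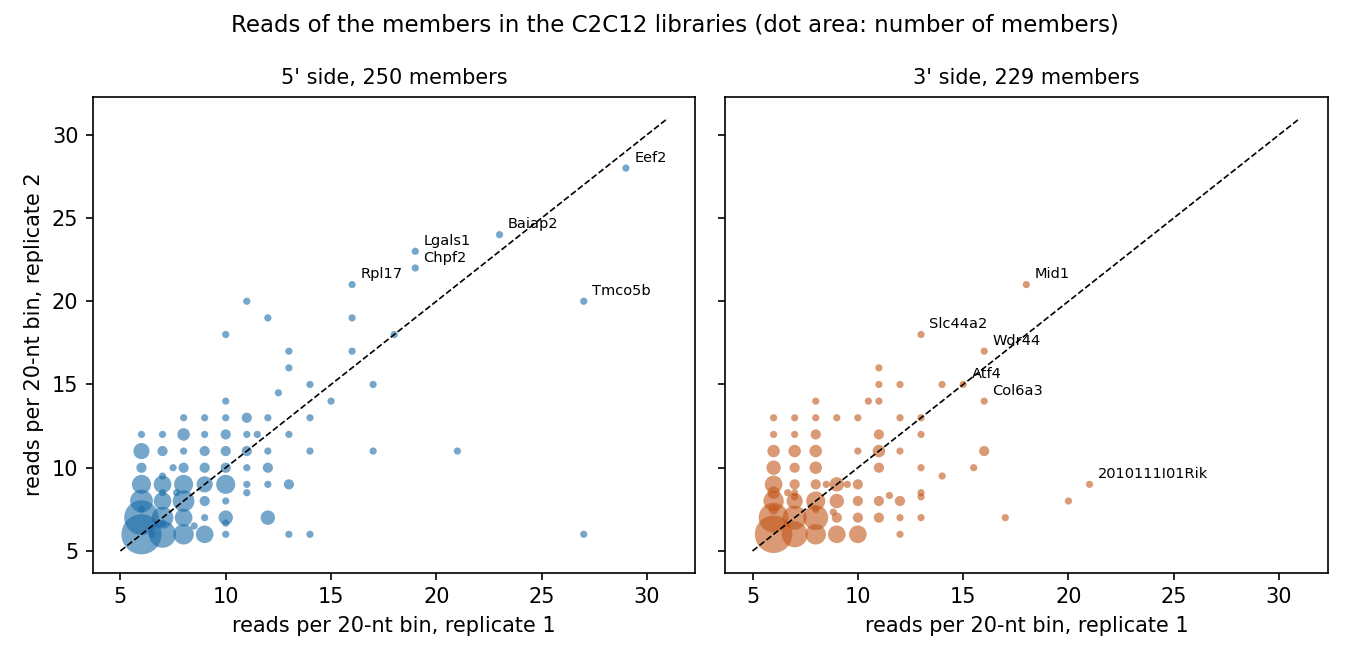
Reads per 20-nt bin in replicate 1 against replicate 2 for the 250 members of the 5′ side and the 229 of the 3′ side, with dot area for the number of members at a point and a dashed line of equality. Only 70 members lie at 10 or above in both libraries, and Eef2 at 29 and 28 is the highest.

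The highest member of all lay in an intron of 188 nt of Eef2, 53 nt after the exon, with 29 reads in replicate 1 and 28 in replicate 2. It overlapped the beginning of the snoRNA gene Snord37 by 6 nt, at chr10:80641695-80641758. Altogether 5 members overlapped an annotated snoRNA gene or had an edge of the peak within 20 nt of it. All were on the 5′ side, which is 1.04% of members against 0.170% of deep peaks. Rpl17, a protein of the large ribosomal subunit, had 16 and 21 reads, 76 nt into an intron, where the peak overlapped SNORD58 by 7 nt. Eif4g1, the scaffold of the cap-binding complex, had 27 and 6 reads at Snord66 (overlap 9 nt), and the libraries differ there more than at any other of the 10 highest members of its side. In these 3 introns, all of plus-strand genes, the centre of the peak lay 4, 3 and 1 nt before the snoRNA. In Taf1d, a subunit of an RNA polymerase I factor, 16 and 19 reads lay just after snoZ40, and in Chd3, a chromatin remodeller, 7 and 12 reads lay just before SCARNA21. The Chd3 peak, on the minus strand, has its centre 27 nt before SCARNA21 and so is not among the 106 peaks above. Where snoRNA and intron overlap, a read from the snoRNA and one from the unspliced intron cannot be told apart.

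The other high members of the 5′ side lay away from annotated small RNA genes. Baiap2, an adaptor of the actin cytoskeleton, had 23 reads in replicate 1 and 24 in replicate 2, 51 nt after the exon. In Tmco5b, whose peak covers the 5′ splice site itself with 4 exonic nt, the libraries gave 27 and 20 reads. Lgals1, which encodes galectin-1, had 19 and 23 reads at 171 nt, and Chpf2, an enzyme of chondroitin synthesis, 19 and 22 at 91 nt. In Elf1, an ETS transcription factor, both libraries gave 18 reads, and the 20-nt sequence occurs 6 times in the genome. Itga7, the laminin-binding integrin of myoblasts, had 16 and 17 reads at 200 nt in the intron that opens its transcript. The numbers of all these but Tmco5b lay within 4 reads of each other.

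On the 3′ side the highest members were lower. Mid1, a ubiquitin ligase of microtubules, had 18 and 21 reads and Wdr44 16 and 17, but their sequences occur 2 and 9 times in the genome and neither edge is an annotated splice site. Slc44a2, a choline transporter, had 13 and 18 reads 95 nt before the exon. Col6a3, a chain of collagen VI, had 16 and 14 reads at 99 nt and was the only one of these 10 on the minus strand. In the transcript 2010111I01Rik the libraries gave 21 and 9 reads. Atf4, the transcription factor of the stress response, had 15 and 15 reads at 13 nt in an intron of 112 nt, with a sequence found 2 times. Naa50, an N-terminal acetyltransferase, had 14 and 15 reads beside its run of C. Eef2 appeared here too with 20 and 8 reads, and Cd164, a sialomucin, with 16 and 11, both of them across the splice site. Peli2, a ubiquitin ligase, had 11 and 16 reads, and its edge too is no annotated splice site. Cd164 and Peli2 tied at a mean of 13.5 reads with Hgf (16 and 11) and Sltm (12 and 15), and chromosome order alone put them among the 10. All 10 of the highest members on the 5′ side and 9 of 10 on the 3′ side lay in plus-strand genes.

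**Figure D4:**
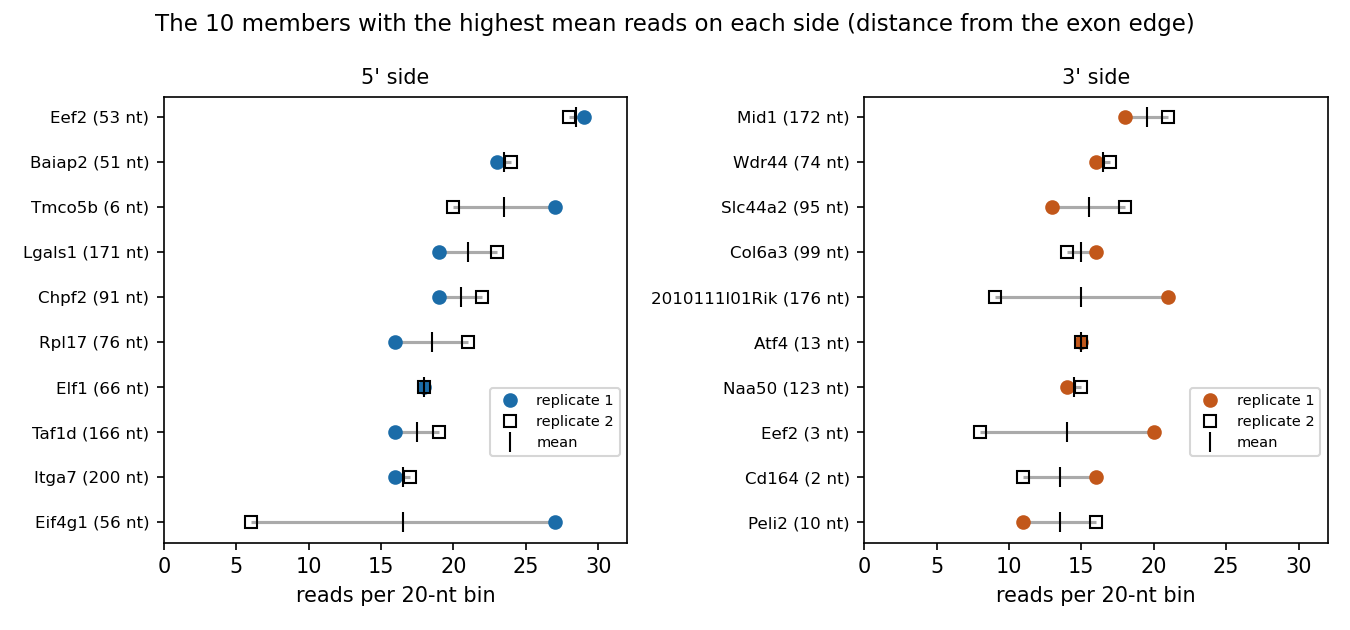
Reads per 20-nt bin in each C2C12 library for the 10 members with the highest mean on each side, with the distance from the exon edge in nt after the symbol and a tick for the mean. On the 5′ side the means run from 16.5 to 28.5 and on the 3′ side from 13.5 to 19.5, and Eif4g1, 2010111I01Rik and Eef2 show the widest gaps between libraries.

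The members fell into 379 of the 4886 protein-coding genes with a shared peak on the strand of their RNA, or 7.76% of them. Most of these genes (314) held 1 member, 41 held 2, 18 held 3, 4 held 4 and 2 held 7. The genes with a member had a median of 6 shared peaks and 13 introns, against 2 and 9 in genes without one.

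Hnrnpl and Slc25a37 led with 7 members each. In Hnrnpl, an hnRNP protein that binds CA-rich RNA and regulates splicing, all 7 lay in a pair of neighbouring introns of 374 and 429 nt that held 3 and 4 of them. Their highest, 51 nt into the shorter intron, had 21 reads in replicate 1 and 11 in replicate 2, and another, 2 nt from the exon, had 11 and 7. The remaining 5 had means between 7 and 10 reads. Both introns have an end that is not a splice site of an annotated transcript. In Slc25a37, which encodes the mitochondrial iron importer mitoferrin-1, 6 of the 7 lay in an intron of 1756 nt between annotated splice sites, 3 at each end, and several were 40 or 60 nt wide. The highest had 11.5 and 12 reads, 190 nt after the exon, and the lowest 6.5 and 6.

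Members at both ends of an intron were found in 18 of the 430 introns with a member, and 36 introns held at least 2. After Slc25a37, the summed reads were highest in Acin1, which binds the exon junction complex, where 4 members lay in an intron of 516 nt with means from 7.625 to 12.25 reads and none at an annotated splice site. In Klf6, a zinc finger transcription factor, the peak at the 5′ end had 11 and 20 reads with a sequence found 16 times, and those at the 3′ end had 6 and 11 and 6 and 8. In Col5a1, a collagen V chain, the ends of 1 intron of 3555 nt had 14 and 15 reads and 14 and 9.5 reads. Both ends of an intron were also bound in 2010111I01Rik, in Zc3h11a, in Safb, which binds nuclear matrix DNA and RNA, and in its paralogue Safb2, and in Zbtb4. Add1, a spectrin-binding adducin, and Col6a3 held 4 members in 4 different introns each, with means from 6.5 to 10 and from 6.75 to 15 reads.

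Genes for extracellular matrix and cytoskeleton often held a member. Of the 13 collagen genes with a shared peak, 5 (38.5%) held a member, 13 members in all, against the 7.76% of all genes. They were Col1a1, Col1a2, Col3a1, Col5a1 and Col6a3, which encode fibrillar and beaded-filament collagens. Of the 13 members, 5 reached across a 3′ splice site (of all 480 members, 54 reached across an edge on that side), such as that of Col3a1 with 11 and 12 reads and that of Col1a2 with 13 and 7. Of the 24 matrix glycoproteins and integrins 8 (33.3%) held a member, and of the 25 cytoskeletal genes 8 (32%), with 14 members. Sptan1 of that list stands in the annotation as Spna2 and was not matched, so the member of Spna2, with 12 and 13 reads, is not in these counts. In Fn1, fibronectin, the reads were 6 and 9 on the 5′ side of an intron and 8 and 6 on the 3′ side of the next. Thbs1, thrombospondin-1, had 10 and 9 reads at its higher member. Dst, Plec and Myh9, which encode dystonin, plectin and nonmuscle myosin IIA, held 3 each with means from 6.5 to 10.5 reads. These genes also had more peaks and introns, with medians of 7 shared peaks and 47 introns for the collagens, 8 and 26.5 for the glycoproteins and 16 and 25 for the cytoskeleton. The part of this in the shares was not tested.

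**Figure D5:**
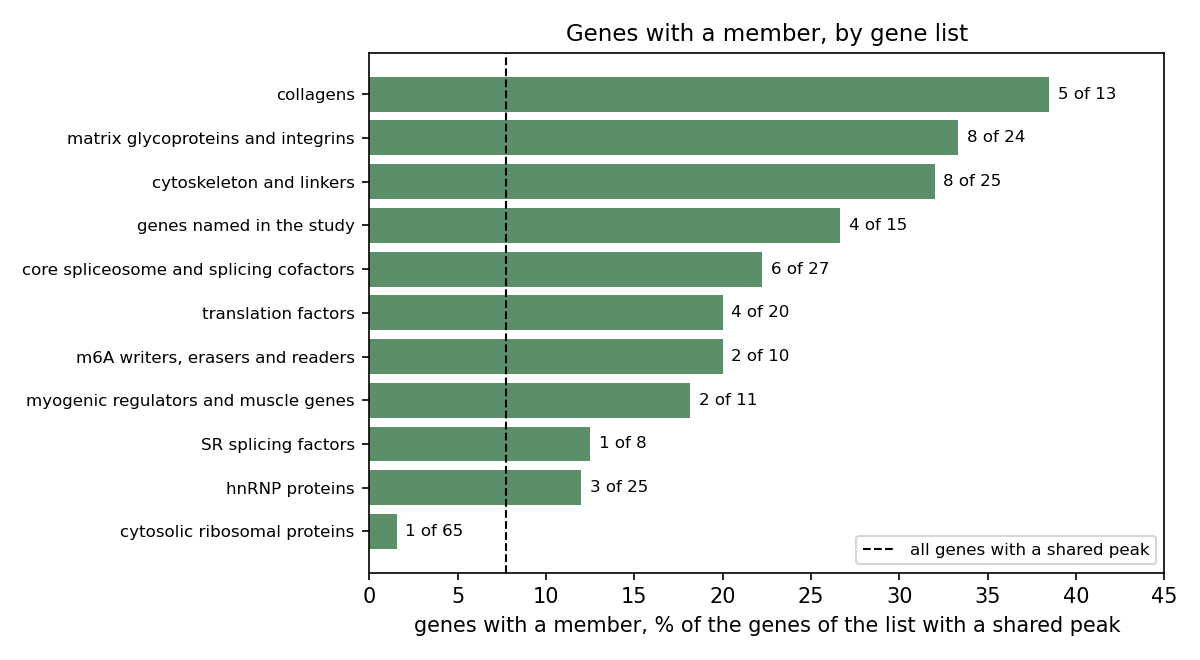
Share of the genes of each list with a C2C12 shared peak that held at least 1 member (%), with the numbers of genes beside the bars and the share over all 4886 genes, 7.76%, as a dashed line. The bars run from 1 of 65 ribosomal protein genes to 5 of 13 collagen genes.

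Among splicing factors, 6 of 27 genes of the spliceosome and its cofactors (22.2%) held a member, against 7.76% of all genes with a shared peak. These genes had medians of 3 shared peaks and 15 introns, against 2 and 10 in all genes. The part of this in the share was not tested. Ddx17, an RNA helicase, held 3, all before the same 3′ splice site, with 13 and 8.5 reads at 66 nt, 9 and 6 at 106 nt and 6 and 8.5 at 6 nt. Ddx39b (UAP56), a helicase of splicing and export, had 8 and 14 reads at a sequence found 2 times. Dhx15, which takes apart the spliceosome, had 6 and 9 reads, Srrm2, a scaffold of nuclear speckles, 8 and 8, and Luc7l2, a U1 snRNP protein, 7 and 11 in an intron of 186 nt. Of the hnRNP genes 3 of 25 (12%) held a member, and Hnrnpm and Hnrnpul2 had 6 and 7.5 reads and 12 and 10 reads beside the 7 members of Hnrnpl. Of the SR genes 1 of 8 (12.5%) did, Srsf6 with 7 and 9 reads. Neither of these shares was tested against the 7.76% of all genes. Of the m6A genes 2 of 10 did, but at repeated sequence. The member of Wtap had 11 and 10 reads at a 20-nt sequence found 4917 times, and that of Igf2bp2, an m6A reader of the cytoplasm, 8 and 8 reads at a G run with a sequence found 1726 times.

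The lowest share was that of cytosolic ribosomal protein genes, of which only Rpl17 of 65 (1.54%) held a member, the one at SNORD58. These genes had a median of 3 introns. Translation factors had 4 of 20 (20%, against 7.76% of all genes), with 2 members each in Eef2 and Eif4g1 and 1 each in Eef1a1 and Eif4a1. Their medians were 4 shared peaks and 13 introns. The other member of Eif4g1, with 17 and 7 reads, covered a 3′ splice site with 9 exonic nt. Among 11 muscle genes was Itga7, with the member described above. Of 20 genes matched from a list drawn from the study's text and supplementary tables, 15 had a shared peak. Of these 15, 4 (26.7%) held a member, against 7.76% of all genes. Their medians were 3 shared peaks and 10 introns, and the share was not tested. Zmynd8, a reader of histone marks, held 3 with means of 7 to 10 reads, and Fn1 held 2. Pi4kb held 1 with 6 and 8 reads at a sequence found 3 times, and Phlda3 1 with 6 and 10 reads across a 3′ splice site. As it comes from the study of these samples, that list is no independent evidence.

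In ASC-48h, 35 members (7.29%, interval 5.13 to 10.0%) overlapped one of the 2443 peaks shared by B1 and B2. The share was 4.55% for deep peaks (Fisher's exact test, two-sided, adjusted p = 0.0346), and it was 7.60% on the 5′ side and 6.99% on the 3′ side (adjusted p = 0.861). Among all peaks of replicate 1, shared or not, the shares were 2.88% near splice sites and 1.86% deep (exact test, adjusted p = 0.0628), and in replicate 2 they were 2.78% and 1.49% (adjusted p = 0.00157). By library, 35 to 49 members were found. Of the 35, 27 lay at a G run (10 or more G in a row on the reads' strand, no farther than 20 nt from the peak), and these were all 27 members at such a run. Of the 241 deep peaks found in ASC-48h, 182 lay at a G run, out of 190 deep peaks at such a run. Without G-run peaks, 8 members remained and the shares were 1.77% and 1.16% (exact test, adjusted p = 0.452), and with sequences found once in the genome 4.24% and 2.77% (adjusted p = 0.268). On plus-strand genes the shares were 4.97% and 3.80% (exact test, adjusted p = 0.608), and on minus-strand genes, where the call was kept, 11.2% and 5.50% (exact test, adjusted p = 0.0302). Minus-strand genes also had the larger share at a G run, 8.99% of members and 4.21% of deep peaks. On plus-strand genes these shares were 3.64% and 3.10%. The strands were not tested without G runs.

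The 8 members found in ASC-48h away from G runs can be named. Elf1 held 2 of them in the same intron, at 66 nt with 18 and 18 reads in C2C12, 12 in B1 T1 and 9.5 and 7 in the B2 libraries, and at 26 nt with 10 and 10 reads in C2C12 and 12 and 20 in B1. No peak of the other ASC libraries overlapped these bins, so at its own bin the member at 26 nt met peaks of B1 only. It is counted among the 35 members, of which 33 were found in all 4 ASC libraries. Fcgr3, an Fc receptor, had 12.5 and 14.5 reads in C2C12 and 9.5 to 15 in the ASC libraries at a sequence found 7 times. Urb2, Actr10, Fbxl20, Jakmip2 and Hps5 had 6 or 7 reads in each C2C12 library and 5 to 8 in each ASC library. The member at the run of C in Naa50 had 14 or 15 reads in all 6 libraries.

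In sequence the members were rich in C and poor in A. In their bins, C made up 32.4% of bases on the 5′ side and 32.7% on the 3′ side, against 21.4% and 21.9% of all windows at these distances, and A made up 16.7% and 15.9% against 24.6% and 24.7%. Deep peaks had 30.5% C and 18.8% A. Within 20 nt of the bin, CCCC on the strand of the RNA was found in 76 members (30.4%) on the 5′ side and 72 (31.4%) on the 3′ side, against 14.9% and 15.2% of windows and 21.9% of deep peaks. A G run on the reads' strand is a run of C on the RNA. The 13 and 14 members at such a run, and 190 deep peaks, therefore hold CCCC by definition and are in these counts. The part of the runs in the share of CCCC was not tested. GGGG was found in 18.8% and 12.2% of members, against 19.6% and 14.4% of windows and 9.85% of deep peaks.

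GGAC, the core of the m6A consensus, stood in members at a share that did not pass the test against deep introns. It was found on the strand of the RNA in 72 members (15.0%, interval 11.9 to 18.5%), against 13.7% of deep peaks (exact test, adjusted p = 0.570). Among all peaks of replicate 2, shared or not, 15.5% near splice sites and 12.7% deep held it (exact test, adjusted p = 0.00650), while in replicate 1 the shares were 14.3% and 13.7% (adjusted p = 0.804). On the 5′ side 45 members (18%) held it and on the 3′ side 27 (11.8%), against 15.7% and 13.6% of windows, and the sides did not pass the exact test (adjusted p = 0.170). GGACT was found in 6.80% and 4.80% of members, against 5.05% and 4.60% of windows. The letters GTAAGT and GTGAGT, which are common at 5′ splice sites, were found in 2% and 1.60% of the 5′ side members against 3.27% and 3.93% of windows there. TTTT, frequent in pyrimidine tracts, was found in 29.7% of the 3′ side members against 36.8% of windows. The windows were not matched to the distances of the members, so these shares are not like for like. At 1 to 20 nt lay 74 of the 229 members of the 3′ side but 60515 of its 534305 windows. On the 5′ side 22 of 250 members and 60563 of 534527 windows lay there. The part of distance in these shares was not tested. G runs lay at 5.20% and 6.11% of members (exact test, adjusted p = 0.812), against 0.145% and 0.159% of windows and 3.59% of deep peaks. These matches describe letters only, and no measurement of m6A was used.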

How the data were processed

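For each library the authors deposited the peaks called by Piranha in bins of 20 nt, with coordinates, strand, the signal (reads per bin, not normalized, averaged over the bins of a wider peak) and Piranha's p-value within that library. The authors trimmed reads with cutadapt 1.15 and aligned them to mm9 with Bowtie 1.2.3. Piranha's settings are stated for ASC only, and the depth per library is unknown. Reads fall on the strand opposite to the RNA.

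Peaks were overlapped and set on NCBIM37 (mm9) and GENCODE vM1 with Python 3.11.15 (scipy 1.17.1, pandas 2.3.3, numpy 2.4.6, matplotlib 3.10.9). The distance runs from the centre of a peak to the nearest edge of the gene's merged exons. Windows are the 20-nt bins of the same grid in introns of genes with a shared peak, at the same distances. Motifs and runs of at least 10 G were searched in the peak with 20 nt on each side. Fisher's exact tests were two-sided and adjusted together within each setting (7 tests, Benjamini-Hochberg), with an adjusted p under 0.05 as the threshold. They run across peaks or windows and not across cultures. The scripts were tested on simulated data, and 11 of 11 checks gave the known answer.

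Members and lists were chosen with earlier results of these data known. Named genes are the 10 highest members per side with those tied, the 10 genes with the most members and the 10 introns with members at both ends and the highest summed reads. Genes of the 11 lists and the 8 members found in ASC-48h away from G runs are named too. Safb2 is named among the introns as the paralogue of Safb. As 18 genes held 3 members, alphabetical order alone decided which of them stood among the 10 genes. Sequences are those of the 5 highest members per side and the 4 highest across an edge, both among members found once in the genome and leaving out chromosome 18, and Tmco5b and Eef2 are printed once per side. The table of tests held other distance limits, overlaps, read and p minimums, copies, G runs and exon edges, and alternatives by strand, edge and small RNA were added after the data were seen. One gene of the lists is not reported here.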

Additional observations from a re-analysis of the deposited data

How the results depend on the processing

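Under 110 alternatives over 7 results, 85 values kept their direction and their side of the threshold, or their size. Limits of 100 and 50 nt left 283 and 183 members, and the share on the 3′ side then turned to 56.7% (exact test, adjusted p = 0.0591) and 68.3% (adjusted p = 2.83e-06). Both tests pooled the strands. At 1 to 20 nt the 3′ side held 56 members against 12 on plus-strand genes and 18 against 10 on minus-strand genes. A p-value of at most 0.00001 left 65 members and at least 10 reads in both libraries left 70. Genes of the plus strand held 302 members with 50.8% on the 3′ side, turned without passing the exact test (adjusted p = 0.902), and genes of the minus strand held 178 with a density ratio of 1.19. Without members across the edge the density ratio was 1.16 and the 3′ side share 42.9% (exact test, adjusted p = 0.0113). This filter took out members but no windows, so that test cannot compare the sides. With only 1 library, the numbers of members were 1248 and 1474. The share found in ASC-48h lost its call at 100 nt (6.36%), at 50 nt (7.10%), at the lower p (16.9%), at 10 reads (15.7%), at sequences found once (4.24%), without G runs (1.77%) and on plus-strand genes (4.97%), with adjusted p from 0.221 to 0.608 by the exact test. It also lost its call without replicate 2 (2.88%). The call was kept without replicate 1 (2.78%) and on minus-strand genes (11.2%, exact test, adjusted p = 0.0302), where 8.99% of members lay at a G run. GGAC lay between 14.3% and 15.5% in single libraries. The order of the sides in G runs turned at 100 nt (4.59% of members) and on minus-strand genes (8.99%), never past the threshold. The cause of these changes was not tested, and fewer members were left in most.

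The alternatives by strand, by edge and by small RNA gene, and the ratio at 1 to 20 nt, were chosen after the data were seen. No paired analysis was possible because no test compares samples of C2C12 with samples of ASC-48h, and all tests run across peaks or windows of C2C12. With 6 reads as the lowest listed number, weaker binding is not seen. The study's text calls the libraries of C2C12 technical replicates, and no control library was analysed here. Expression was not measured here.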
